A study of Homo sapiens with 61 samples.

Results

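A set of 1251 genomic regions carried trimethylated lysine 4 of histone H3 (H3K4me3) in U2OS cells of both genotypes without UV light, kept it in irradiated wild-type (WT) cells, and dropped out of the peak lists of irradiated ASH1L–/– cells at both times. The regions were chosen from the peak lists themselves. The H3K4me3 peaks of all 18 libraries were merged wherever they overlapped or touched, which gave 282418 regions. A region was called robust in a group when at least 2 of its 3 libraries held a peak there. The 1251 regions were robust in unirradiated ASH1L–/– cells and in WT cells without UV, at 1 h and at 3 h, but in neither irradiated ASH1L–/– group, and they made up 0.443% of all merged regions. The presence and size of H3K4me3 peaks in these regions therefore describe how they were chosen and were not tested.

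U2OS is a human osteosarcoma cell line. The groups were ASH1L–/– cells left unirradiated or collected 1 h or 3 h after UV-C light at 20 J/m2, and WT cells under the same 3 conditions, with 3 H3K4me3 libraries each. The knockout cells carried homozygous deletions made with CRISPR/Cas9 and were grown from isolated colonies, so a difference between genotypes may also be one between clones. Chromatin bound by XPC was profiled in the same 6 groups, with 3 libraries each and 4 for unirradiated WT cells. The labels number the libraries within each group as biological replicates, and p-values measure the spread between them.

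H3K4me3 is a histone mark that in most human cells sits at the start sites of active genes, above all where DNA is rich in CpG dinucleotides. It is written mainly by the SET1 and MLL families of methyltransferases. ASH1L is a SET-domain methyltransferase best known for acting on lysine 36 of histone H3, and the study examined it as a writer of H3K4me3 after UV damage. XPC is the protein that senses distorted DNA and starts global genome nucleotide excision repair. The comparison asks which marked regions stayed in the peak lists of WT cells after irradiation but not in those of ASH1L–/– cells.

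The sequences under the regions that followed the pattern most completely are shown as examples and need not be typical of the set. They are the 300 bases around the median summit of the first 4 regions, ranked by the number of libraries that followed the pattern and then by mean fold enrichment. They were read from the plus strand of hg38, 5′ to 3′, and capitals mark each CpG dinucleotide.
Nearest start site TCERG1L, chr10:130835373-130835672: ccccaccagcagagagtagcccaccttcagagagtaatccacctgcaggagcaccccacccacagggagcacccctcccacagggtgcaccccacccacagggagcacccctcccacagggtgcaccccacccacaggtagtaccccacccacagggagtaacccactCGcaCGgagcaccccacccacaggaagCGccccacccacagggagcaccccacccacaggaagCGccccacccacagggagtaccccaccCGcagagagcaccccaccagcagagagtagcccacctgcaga
Nearest start site GLRX3, chr10:130483227-130483526: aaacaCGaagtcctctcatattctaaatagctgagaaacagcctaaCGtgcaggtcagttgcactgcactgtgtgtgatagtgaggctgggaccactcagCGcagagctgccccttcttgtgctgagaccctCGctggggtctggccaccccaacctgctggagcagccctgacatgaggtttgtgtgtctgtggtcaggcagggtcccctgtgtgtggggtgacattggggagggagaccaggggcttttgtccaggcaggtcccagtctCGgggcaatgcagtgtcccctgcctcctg
Nearest start site DEFB115, chr20:30651808-30652107: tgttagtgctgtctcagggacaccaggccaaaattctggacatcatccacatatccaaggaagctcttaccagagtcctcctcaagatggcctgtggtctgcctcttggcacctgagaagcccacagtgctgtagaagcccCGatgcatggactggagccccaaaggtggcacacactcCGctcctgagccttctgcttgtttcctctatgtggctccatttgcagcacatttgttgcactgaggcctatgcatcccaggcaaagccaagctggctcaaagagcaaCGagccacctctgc
Intron of TCERG1L, chr10:131271601-131271900: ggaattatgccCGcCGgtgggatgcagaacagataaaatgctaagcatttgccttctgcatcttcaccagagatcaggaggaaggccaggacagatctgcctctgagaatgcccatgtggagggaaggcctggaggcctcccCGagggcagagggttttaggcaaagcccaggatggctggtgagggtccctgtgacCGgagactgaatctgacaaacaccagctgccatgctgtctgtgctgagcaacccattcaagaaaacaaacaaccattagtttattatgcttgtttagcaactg

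The first window held 5 CpG at a GC content of 67.3%, and a word of 10 bases occurred in it up to 8 times. Such a word occurred at least 4 times in 31 of the 1251 windows (2.48%) and in 4.12% of those of constant regions. The GLRX3 window also held 5 CpG, at 58.7% GC. The DEFB115 and TCERG1L intron windows held 3 and 4 CpG at 54.7% and 52% GC. Over all 1251 regions the 300 bases around the summit had a median of 3 CpG, against 6 in the 40691 regions robust in all 6 groups. The ratio of observed to expected CpG had a median of 0.17 in the 1251 regions and 0.35 in the constant ones, while median GC content was 54.3% and 53%. A CpG ratio over 0.6 together with a GC content over 50% was found in 13 of the 1251 regions (1.04%) and in 12424 of 40690 constant regions (30.5%). Pyrimidine pairs on either strand, where UV light forms its main lesions, were equally frequent, with a median of 57.2% of dinucleotide steps in both sets. Steps of TT or AA alone had a median of 10.7% in the 1251 regions and 11.7% in the constant ones. The 1251 regions thus held few of the CpG-rich windows found among the constant regions, at a like share of dipyrimidines.

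Most of the regions lay away from genes' start sites. Of the 1251, 13 (1.04%, 95% Wilson interval 0.608% to 1.77%, which covers counting error only) reached a protein-coding promoter, taken as 2 kb to either side of a start site, whereas 12590 of 40691 constant regions (30.9%) did. Gene bodies held 466 (37.2%) of the 1251 and 28.4% of the constant regions, and intergenic DNA held 772 (61.7%) and 40.7%. The median distance to the nearest protein-coding start site was 127 kb for the 1251 regions and 31.8 kb for the constant ones. Of all 282418 merged regions 5.70% were at promoters, with a median distance of 95.6 kb. Of the 183 regions missing instead from both irradiated WT groups, 2 (1.09%) were at promoters and 66.1% intergenic, with a median distance of 144 kb. A lncRNA gene was overlapped by 279 of the 1251 (22.3%) and by 26.4% of the constant regions. A constant region was often near, since 593 of the 1251 (47.4%) lay within 10 kb of one, compared with 38.8% of the constant regions that lay that close to another.

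Candidates were the 44957 regions robust in unirradiated ASH1L–/– cells and in all 3 WT groups. Of these, 40691 (90.5%) were also robust in both irradiated ASH1L–/– groups and 1251 (2.78%) in neither. A further 1187 were missing at 1 h only and 1828 at 3 h only. The mirrored case, robust in the 3 ASH1L–/– groups and in unirradiated WT cells but in neither irradiated WT group, held 183 regions (0.439% of its 41711 candidates). Among the 15 ways in which 2 of the 6 groups can be missing, the pair of irradiated ASH1L–/– groups ranked behind the pair of unirradiated groups, which had 2136 regions. The pair of the unirradiated and 3 h ASH1L–/– groups came next, with 1221. These counts follow from peak calls alone and carry no test.

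The pattern was complete in few of the regions. In 292 of the 1251 no irradiated ASH1L–/– library held a peak, in 529 1 of the 6 did and in 430 2 did. All 12 other libraries held a peak in 147 regions, and 31 followed the pattern in all 18 libraries. In unirradiated ASH1L–/– cells 78.9%, 73.1% and 89.3% of the 1251 regions had a peak in the 3 libraries. The share was 7.91%, 27.2% and 26.5% at 1 h and 27.1%, 6.71% and 15.6% at 3 h in ASH1L–/– cells. In WT cells it was 77.3%, 75.5% and 87.8% without UV, 87.9%, 83.4% and 93.9% at 1 h, and 96.5%, 87.4% and 95.2% at 3 h. The 2 lowest shares belonged to the libraries with the shortest lists among the irradiated ASH1L–/– libraries, replicate 1 at 1 h with 72984 peaks and replicate 2 at 3 h with 94366, compared with 120024 to 126467 in the other 4. Without these 2 libraries 1983 regions met the rule, of which 1249 were among the 1251. The direction of such changes is largely set by the rule, which still asked for 2 libraries with a peak. Leaving out irradiated ASH1L–/– libraries makes absence easier to meet, and leaving out other libraries makes presence harder to meet. Single libraries also moved the number by more than 1.5 times. It was 786 and 656 without replicate 1 or 3 of unirradiated ASH1L–/– cells, 2039 and 2017 without replicate 2 or 3 of ASH1L–/– cells at 1 h, and 793, 816 and 655 without replicate 1, 2 or 3 of unirradiated WT cells.

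**Figure D1:**
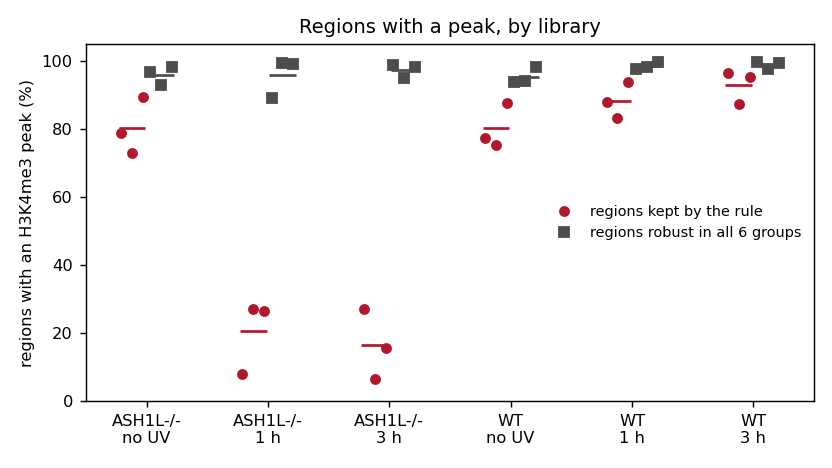
Share of regions with an H3K4me3 peak (vertical axis, percent) in each library of the 6 groups; circles are the 1251 regions kept by the rule, squares the 40691 regions robust in all 6 groups, and bars the mean of 3 libraries. The 6 irradiated ASH1L–/– libraries sit between 6.71% and 27.2% for the kept regions, which the rule fixes, and at 89.0% or above for the constant ones.

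The peaks that made up these regions were weak. In unirradiated ASH1L–/– and WT libraries their summits had a median fold enrichment over the local control of 3.07, a median −log10 p of 5.14 and 15 sequenced fragments. Constant regions in the same libraries had 4.79-fold, 13.7 and 32 fragments. Fragment numbers were recovered from each peak's fold enrichment and p, and all peaks gave a whole number. Where an irradiated ASH1L–/– library did hold a peak in the 1251 regions, it had 2.68-fold enrichment, a −log10 p of 4.11 and 14 fragments. The regions were also short, with a median of 1496 bp against 2347 bp.

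Enrichment differed little between the unirradiated groups. The median fold in the 3 libraries was 2.93, 2.97 and 2.96 in ASH1L–/– cells without UV and 2.92, 2.69 and 3.03 in WT cells without UV. In WT cells it was 3.08, 3.03 and 3.02 at 1 h and 3.598, 3.43 and 3.56 at 3 h, so the 3 h libraries stood above the other WT libraries. Mean covered length in WT cells was 329 bp, 364 bp and 528 bp without UV, 713 bp, 617 bp and 853 bp at 1 h, and 1149 bp, 756 bp and 1146 bp at 3 h. The H3K4me3 peaks of WT cells in these regions were thus longer after irradiation in every library, a comparison for which the rule sets presence but no length, and which was not tested because both come from the same peaks. Constant regions in WT cells were covered over 1499 bp to 1832 bp without UV and over 1879 bp to 2244 bp at 3 h.

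**Figure D2:**
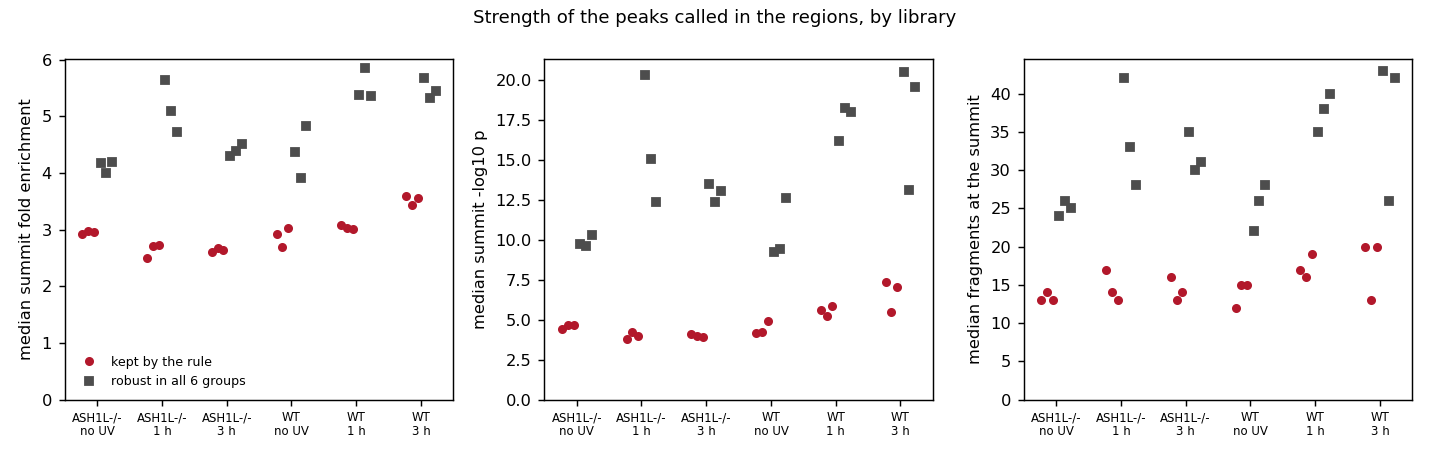
Median summit fold enrichment, −log10 p and fragments at the summit (vertical axes) over the peaks each library held in the regions, by group; circles are the kept regions and squares the regions robust in all 6 groups, 1 point per library. Kept regions lie below the constant ones in all 18 libraries on all 3 measures.

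A missing peak says that a library had fewer fragments than a call needs, not that it had none. At the genome background of each library, which was 3.11 to 3.99 fragments in irradiated ASH1L–/– libraries, a summit of 8 or 9 fragments was called at p under 0.01. The local background at peaks called in the 1251 regions was 1.18 to 1.61 times the genome background in irradiated ASH1L–/– libraries. It was 1.00 in all 3 unirradiated ASH1L–/– libraries, 1.17 to 1.25 in unirradiated and 1 h WT cells, and 1.00 in 3 h WT cells. At these local values a call needed 9 to 12 fragments in irradiated ASH1L–/– cells, 8 or 9 in unirradiated ASH1L–/– cells and 7 to 12 in WT cells. The unirradiated ASH1L–/– summits had medians of 13, 14 and 13 fragments, a few above that limit. Per the study's methods the input controls were pooled, so libraries of a group can share a control, and the part of the control background in the result was not tested. With peaks limited to summits of at least 5 times the genome background 171 regions met the rule (0.648% of candidates) and 77 of the 1251 overlapped one of them.

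Regions just inside and just outside the rule had similar enrichment. The 430 regions with a peak in 1 of 3 libraries at both irradiated ASH1L–/– times had a median of 3.08-fold in the other 12 libraries and 2.73-fold where called in irradiated ASH1L–/– cells. The 1152 regions with 1 of 3 at one time and 2 of 3 at the other had 3.14-fold and 2.85-fold. The 31 complete regions had 3.15-fold and 16 fragments, beside 3.07-fold and 15 over all 1251. In 488 of the 1251 (39.0%) a single base lay under peaks of at least 2 libraries in each of the 4 marked groups, over a median of 145 bp. In the others, the peaks of the 4 groups were joined by merging without such a common base.

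The best examples lay far from promoters. The region ranked first (chr10:130833112-130837312, intergenic) is 474 kb from the start site of TCERG1L. Its summits held 14, 16 and 13 fragments in unirradiated ASH1L–/– cells, and none of the 6 irradiated ASH1L–/– libraries had a peak. In WT cells they held 18, 16 and 18 fragments without UV, 26, 28 and 27 at 1 h, and 33, 23 and 32 at 3 h. The WT libraries after UV were all above those of unirradiated ASH1L–/– cells, a comparison that differs in both genotype and irradiation.

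The second region (chr10:130479869-130487243) overlaps the lncRNA gene LINC02646 and is 344 kb from GLRX3, which codes for a monothiol glutaredoxin. It had 11, 13 and 16 fragments in unirradiated ASH1L–/– cells and no peak after UV. WT cells had 12, 18 and 18 fragments without UV, 28, 21 and 28 at 1 h, and 30, 19 and 28 at 3 h. As in the first region, the irradiated WT libraries were above all those of unirradiated ASH1L–/– cells. Both regions were ranked by mean fold over the 12 marked libraries, most of them WT. High WT summits therefore follow in part from the ranking and were not tested.

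An intron of TCERG1L itself (chr10:131269608-131275509) held the fourth region, with 13, 16 and 15 fragments in unirradiated ASH1L–/– cells and none called after UV. Its WT summits had 19, 15 and 16 fragments without UV, 21, 21 and 24 at 1 h, and 28, 23 and 22 at 3 h. The region chr10:129424532-129426314 is 40.9 kb from MGMT, the gene of the enzyme that removes methyl groups from guanine in damaged DNA. It had 13, 14 and 11 fragments in unirradiated ASH1L–/– cells, with no peak after UV, and 11 to 34 fragments in the 9 WT libraries. Those WT values overlapped the unirradiated ASH1L–/– values.

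Off chromosome 10, an intron of ANKFN1 (chr17:55909790-55912006) had 16, 11 and 15 fragments in unirradiated ASH1L–/– cells and no peak after UV. The WT libraries had 15, 17 and 17 fragments without UV, 19, 23 and 18 at 1 h, and 33, 20 and 25 at 3 h. An intron of AGAP1 (chr2:235609637-235611428), a gene for an Arf GTPase-activating protein, had 13, 11 and 12 fragments in unirradiated ASH1L–/– cells and 10 to 22 in the 9 WT libraries. Of the first 20 regions, 8 lay in stretches of chromosome 10 where kept regions were dense and none was a promoter. Over these 20 regions, summits held 9 to 23 fragments in unirradiated ASH1L–/– cells and 10 to 34 in WT cells.

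**Figure D3:**
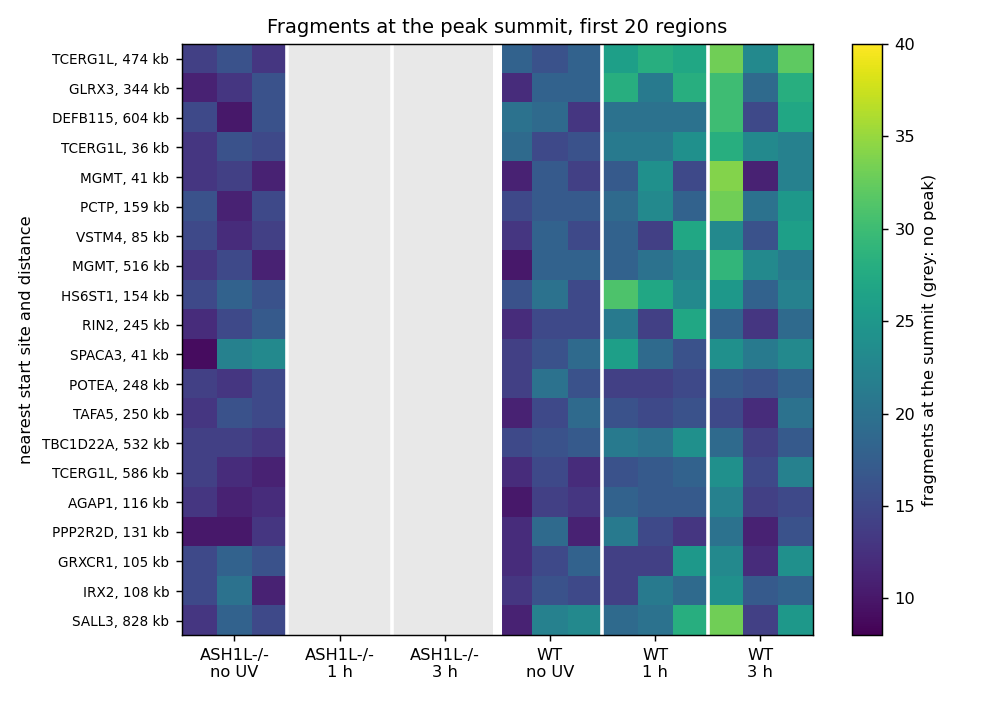
Fragments at the H3K4me3 peak summit (colour) in the first 20 regions (rows, labelled by the nearest protein-coding start site and its distance) in the 18 libraries (columns, 3 per group). Grey marks no peak, which for the 6 irradiated ASH1L–/– columns follows from the ranking; the brightest cells are in WT cells after UV.

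The regions at promoters numbered 13, and the first 10 by rank were examined. The first of them by rank lies at C10orf71 (chr10:49294451-49300116), with 14, 16 and 14 fragments in unirradiated ASH1L–/– cells and no peak after UV. Its WT libraries had 15 and 16 fragments in 2 of 3 without UV, 22, 18 and 29 at 1 h, and 26, 12 and 27 at 3 h. PCK1 (chr20:57559887-57562215), which codes for the cytosolic enzyme of the first committed step of glucose synthesis, ranked after TFF2. It had 14, 14 and 15 fragments in unirradiated ASH1L–/– cells and a peak of 18 in 1 library at 1 h. PLD4, the gene of a nuclease of immune cells, had 20 and 21 fragments in 2 unirradiated ASH1L–/– libraries and no peak after UV (chr14:104923629-104925447). The others named by the ranking were TFF2, a stomach trefoil peptide, HTR3A, a serotonin-gated channel subunit, and GLRA1, a glycine receptor subunit. They also included BPIFA1, secreted in the airways, NLRP10, CD300C, a myeloid receptor, and TMEM72. HTR3A and GLRA1 each kept a peak in 2 irradiated ASH1L–/– libraries, of 26 and 25 fragments and of 24 and 23 fragments. BPIFA1 also kept a peak in 2, of 12 and 14 fragments. TFF2, TMEM72 and NLRP10 each kept a peak in 1 and CD300C in none. The 3 unirradiated ASH1L–/– libraries had 15, 24 and 26 fragments at HTR3A and 19, 20 and 21 at GLRA1. At GLRA1 the enrichment in the 2 irradiated ASH1L–/– libraries with a peak was 2.13-fold and 2.18-fold. It was 4.25-fold, 4.52-fold and 4.92-fold in unirradiated ASH1L–/– cells.

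The listed genes of nucleotide excision repair and of the UV response held none of the regions, and other repair pathways were not listed. None of the 1251 overlapped the promoter or body of the 38 nucleotide excision repair genes, where 60 candidate regions lay. There was also none at the 28 p53 targets (39 candidates) and none at the 30 immediate early and stress genes (47 candidates). The 25 genes of H3K4 methylation, the ASH1L complex and the FACT chaperone had none of 52 candidates, and the 87 homeobox factors none of 94. The 29 mesenchymal and osteoblast genes held 1 of 42 candidates, in SPARC, which codes for a collagen-binding matrix protein (chr5:151664898-151666538, overlapping an exon). Over all candidates 2.78% were kept, but only 13 of the 12665 candidates at promoters were. These counts are a description with no test.

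The marker genes of other cell types were checked in the same way. Of 20 such genes only RBFOX3, a neuronal splicing factor, held any of the 1251 regions, with 3 in its introns. The list had 26 candidates, of which these 3 are 11.54%, beside 2.78% over all candidates. The RBFOX3 promoter was marked in no group. The strongest of the 3 (chr17:79383530-79385610) had 12 and 14 fragments in 2 unirradiated ASH1L–/– libraries, no peak after UV, and 14 to 29 in the 9 WT libraries. Of 10 mesenchymal markers, 6 promoters were marked at 5-fold or more in all groups (RUNX2, FN1, VIM, SPARC, CDH2 and THY1) and COL1A2 and TWIST1 in none. Among neuronal markers, 1 of 3 (SNAP25) was marked in all groups and 2 of 3 in at least 1. Epithelial markers were marked at 0 of 5 promoters in all groups and at 1 in at least 1 group, hepatocyte markers at 0 of 3 and at 1, and blood markers at 0 of 5 in any group.

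The regions were unevenly spread over the genome. Chromosome 20 kept 106 of its 1465 candidates (7.24%) and chromosome 10 kept 167 of 2740 (6.09%). Chromosomes 14 and 5 followed with 4.05% and 3.91%, whereas chromosome 19 kept 17 of 1997 (0.851%) and chromosome X 4 of 1003 (0.399%). Bins of 1 Mb with at least 7 of the regions, joined where adjacent, formed 18 segments of 25 Mb in all. The segments held 303 of the 1251 regions (24.2%) but 3.33% of the candidates. Outside them, 948 regions were left, 2.18% of the candidates there.

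**Figure D4:**
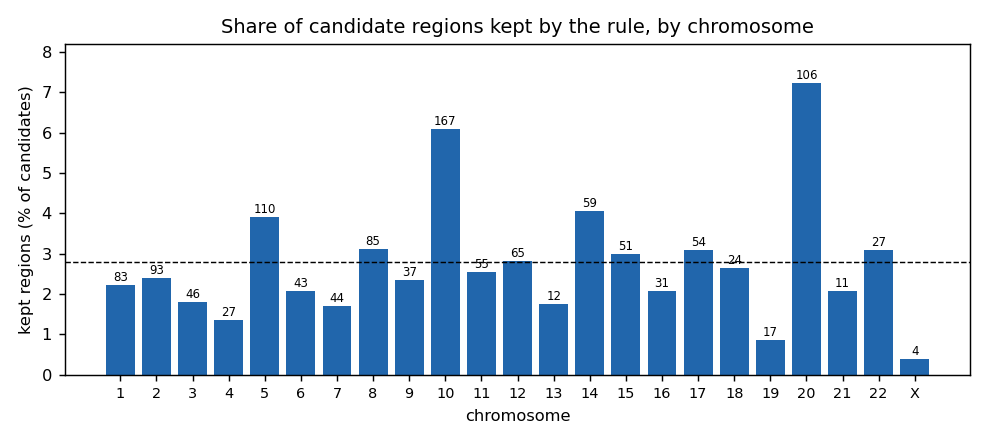
Kept regions as a percentage of the candidate regions on each chromosome (bars), with the number of kept regions above each bar and the genome-wide 2.78% as a dashed line. Chromosomes 20 and 10 stand highest, at 7.24% and 6.09%.

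The segment with the most regions was near the end of chromosome 10 (chr10:128000001-132000000), where 82 of 307 candidates (26.7%) were kept. It holds 9 protein-coding genes, among them MKI67, the proliferation marker, MGMT, the transcription factor gene EBF3, and TCERG1L. None of the 82 was at a promoter, 17 were in gene bodies and 65 were intergenic. In unirradiated ASH1L–/– cells 59, 59 and 75 of the 82 had a peak. In ASH1L–/– cells after UV 2, 13 and 13 did at 1 h, and 9, 4 and 6 at 3 h. In the 9 WT libraries 76 to 81 did.

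All H3K4me3 peaks of that segment, not only those in the kept regions, were fewer in ASH1L–/– cells before irradiation. There were 156, 161 and 231 peaks per Mb in unirradiated ASH1L–/– cells, against 326, 363 and 411 in unirradiated WT cells. Some other dense segments went the other way. On chr10:43000001-45000000 the means were 272 in unirradiated ASH1L–/– cells and 233 in unirradiated WT cells, with overlap between libraries. The segment chr10:128000001-132000000 had 90.2, 144 and 149 peaks per Mb at 1 h and 128, 94.0 and 112 at 3 h in ASH1L–/– cells. In WT cells after UV it had 364 to 458. As a share of each list, the segment held 0.564% to 0.737% in ASH1L–/– cells without UV, 0.471% to 0.495% at 1 h and 0.372% to 0.414% at 3 h. In WT cells it held 1.14% to 1.59% in all 9 libraries. The segment was picked for its many kept regions and these peaks include those in them. The numbers without UV and the lower numbers after UV in ASH1L–/– cells thus rest on values the rule used. A difference in copy number or clone between the lines was not tested.

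Single genes covered other dense segments. In PTPRT, a receptor tyrosine phosphatase gene and the only protein-coding gene of chr20:42000001-43000000, 26 of the segment's 28 kept regions lay in the gene body, among 88 candidates (31.8%). The 3 unirradiated ASH1L–/– libraries held peaks in 25, 9 and 26 of the 28, the irradiated ASH1L–/– libraries in 1 to 9, and the WT libraries in 23 to 28. ASIC2, which codes for an acid-sensing ion channel, spanned chr17:33000001-34000000 and held all 12 kept regions there, of 64 candidates. The 3 unirradiated ASH1L–/– libraries held 3, 10 and 12 of these, and the irradiated ASH1L–/– libraries 0 to 7, so the groups overlapped. On chr5:2000001-4000000, which holds the developmental genes IRX1 and IRX2, 30 of 108 candidates were kept and all 30 were intergenic. On chr10:48000001-50000000, which includes the repair gene ERCC6, 29 of 123 were kept and none overlapped ERCC6.

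XPC peaks were not used to choose the regions, so XPC could be compared between groups. The measure was the number of bases under XPC peaks in 2 kb around each merged region, fitted with limma over 266464 windows, 1229 of them at the 1251 regions. No window of the 1251 regions passed an adjusted p under 0.05 in any of the 5 contrasts. In irradiated against unirradiated ASH1L–/– cells 0 of 1229 passed, with 0% of all windows called higher and 0% lower. In irradiated against unirradiated WT cells 0 of 1229 passed, with 0% called higher and 0.00788% lower (21 windows). The difference of these 2 changes, ASH1L–/– against WT without UV, and ASH1L–/– against WT after UV called 0% of windows in both directions. At an unadjusted p under 0.05, 16 of the 1229 were higher and 38 lower after UV in ASH1L–/– cells, beside 2819 higher and 16279 lower of all 266464 windows. After UV in WT cells 50 were higher and 66 lower, beside 4120 and 21881 of all windows. For the difference of changes 17 were higher and 18 lower, beside 5583 and 5198. For ASH1L–/– against WT without UV 24 were higher and 59 lower, beside 9463 and 11559, and after UV 16 were higher and 58 lower, beside 6487 and 7131.

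The median change at the 1229 windows was 46.0 bp after UV in ASH1L–/– cells, beside −18.7 bp over all windows, and 10.7 bp beside −61.7 bp in WT cells. The median of the difference of these changes was 18.8 bp, beside 33.1 bp over all windows. Set against WT cells, ASH1L–/– cells had a median of −79.2 bp without UV, beside −27.2 bp over all windows, and −55.7 bp after UV, beside 2.67 bp. The smallest adjusted p among the 1229 was 0.133 (limma), after UV in WT cells. In that contrast 4, 1 and 1 of the regions passed when replicate 1, 3 or 4 of unirradiated WT cells was left out, all of them lower, beside 679, 461 and 754 lower among all windows. With windows of 10 kb, 7 of 1251 regions were lower after UV in WT cells, beside 1826 of all 279915 windows. In that setting 18 regions without UV and 2 after UV were lower in ASH1L–/– than in WT cells, beside 2528 and 532 of all windows.

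XPC peaks covered these regions in every library. On average they took up 20.0%, 16.5% and 15.4% of the 2 kb window in unirradiated ASH1L–/– cells. In ASH1L–/– cells the values were 15.4%, 18.3% and 12.4% at 1 h and 9.26%, 36.2% and 19.7% at 3 h. In WT cells they were 23.5%, 20.8%, 30.0% and 13.6% without UV, 22%, 15.0% and 22.7% at 1 h, and 20.1%, 33.3% and 18.9% at 3 h. The irradiated and unirradiated libraries overlapped within each genotype, and the genotypes overlapped without UV, at 1 h and at 3 h. The lists for XPC ended at 500000 peaks in 17 of 19 libraries. The lowest value, 9.26%, came from 1 of the 2 shorter lists. At the constant regions the 2 highest values came from 1 unirradiated library of each genotype, 39.2% in ASH1L–/– and 41.3% in WT cells, beside 13% to 35.4% in the others.

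**Figure D5:**
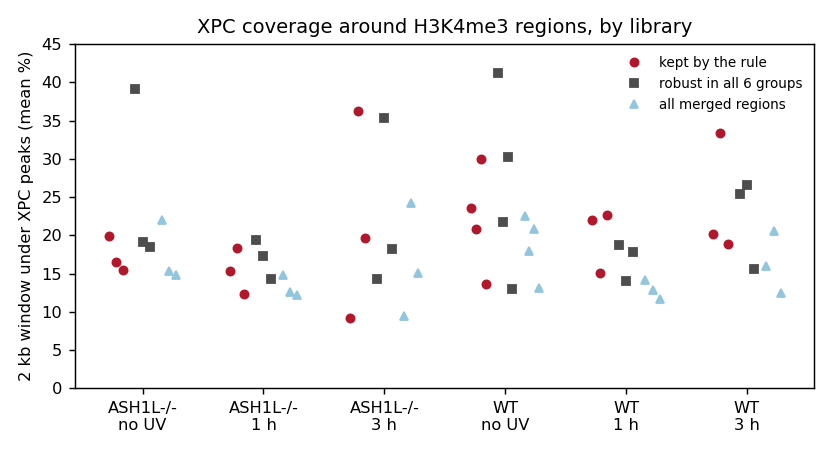
Mean share of the 2 kb window around each region under XPC peaks (vertical axis, percent) in each of the 19 libraries by group; circles are the kept regions, squares the regions robust in all 6 groups and triangles all merged regions. At the kept regions the 9 ASH1L–/– libraries span 9.26% to 36.2% and the 10 WT libraries 13.6% to 33.3%.

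The first region, 474 kb from TCERG1L, illustrates the spread. XPC peaks covered 743 bp, 879 bp and 130 bp of its window in unirradiated ASH1L–/– cells, 0 bp, 529 bp and 0 bp at 1 h, and 0 bp, 0 bp and 485 bp at 3 h. In WT cells they covered 477 bp, 128 bp, 0 bp and 242 bp without UV, 736 bp, 0 bp and 611 bp at 1 h, and 325 bp, 1167 bp and 467 bp at 3 h. The change after UV was −415 ± 312 bp in ASH1L–/– cells (± SE, limma, adjusted p = 0.845) and 339 ± 285 bp in WT cells (adjusted p = 0.741). Neither exceeded the spread between libraries.

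XPC over the dense segments was fitted in the same way over 2894 bins of 1 Mb, a fit added after the data were seen. Of the 25 bins of the segments, 3 were lower in ASH1L–/– than in WT cells without UV and 0 were higher, while 7.05% of all bins were called lower and 1.9% higher. The same number, 3, were lower after UV, where 4.08% of all bins were lower and 2.9% higher. These bins were on chromosomes 5, 12 and 13. The one with the smallest p without UV was chr12:2000001-3000000, which holds the calcium channel gene CACNA1C, at −241 ± 40.03 kb per Mb (± SE, limma, adjusted p = 0.000152). No bin of the chromosome 10 segments passed in either contrast, and none of the 25 changed after UV in either genotype, where 0% of all bins were called in ASH1L–/– cells and 2.11% were lower in WT cells.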

How the data were processed

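Chromatin immunoprecipitation sequencing of H3K4me3 and XPC was analysed from 37 deposited peak lists of 61 samples (18 for H3K4me3, 19 for XPC). The 18 inputs and 6 XPC-deficient samples served the authors as controls. Per the study's methods, peaks were called for each library: single-end reads were trimmed (Trim Galore 0.6.5), aligned to hg38 without chromosome Y (BWA 0.7.17-r1188), filtered (bedtools 2.29.2, Picard, SAMtools 1.7) and called with MACS2 2.2.7.1 at p under 0.01, as narrow peaks against pooled input or broad peaks against pooled XPC-deficient immunoprecipitates, so libraries can share a control and are not independent in their fold or background. The deposited columns used are positions, the fold enrichment (a ratio over local control), the −log10 p and the −log10 q of each peak, as the authors' caller gave them. No deposited peak ended past its hg38 chromosome. H3K4me3 lists held 72984 to 142688 peaks. The peak lists hold no read depth, and the mapped reads the study lists were not used here. The summit fragments and local background were solved from each peak's fold and p.

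Merging, counting and annotation used Python 3.11.15, pandas 2.3.3 and GENCODE 44, with promoters within 2 kb of a MANE or canonical protein-coding start site. XPC covered length was fitted with limma 3.58.1 in R 4.3.3 (group means over all 19 libraries, trend and robust moderation, windows covered in at least 3 libraries, Benjamini-Hochberg threshold 0.05). The rule and the fit were tested on simulated data. No pair of the H3K4me3 libraries shared identical peaks. Named regions were the 20 with the most libraries following the pattern, ties by mean fold over the 12 marked libraries, then 10 promoter regions and up to 4 per gene list by the same order. The regions, gene lists and segments were chosen with earlier results of these data known. Alternatives covered peak thresholds, merging, windows, scaling, the replicate block and leaving out libraries.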

Additional observations from a re-analysis of the deposited data

How the results depend on the processing

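The number of kept regions, 1251, was within 1.5 times of the main count with a −log10 q of at least 1.3 (1134, overlapping 898 of the 1251), with other merging distances and outside the dense segments. It moved to 679 with peaks of at least 3-fold, 51 at 5-fold, 712 with equal list lengths, 801 when peaks had to cover 25% of a region, and 31 with 3 of 3 libraries present and 0 of 3 absent. Added after the data were seen, summits of at least 5 times background gave 171, and leaving out the 2 shortest irradiated ASH1L–/– lists gave 1983. Of the 1251 regions, 71 overlapped those kept at 3-fold, 0 those at 5-fold and 188 those with equal list lengths. Without 1 library the number ranged from 655 (without WT_noUV replicate 3) to 2039 (without ALKO_1h replicate 2). Because 2 libraries were still needed, the direction of such changes was largely set by the rule, also in the mirrored case. The mirrored number, 183, moved to 76 at 3-fold, 5 at 5-fold, 107 with 25% cover, 0 under the strict presence rule and 20 with the higher summits, and ranged from 66 to 392 without 1 library. The share at promoters, 1.04%, was 0.48% within 1 kb and 2.56% within 5 kb.

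For XPC, 21 windows of WT cells were lower after UV, with 0 windows in the other contrasts. With the region itself as window, the calls were 124 (UV in ASH1L–/–), 63 (UV in WT), 1 (difference) and 114 (genotypes without UV), and no kept region. With 10 kb they were 22, 1838, 3264 (genotypes without UV) and 929 (after UV), with 7, 18 and 2 kept regions in the last 3. Scaled to equal totals there were 5, 6 and 35 (genotypes after UV). In WT cells the 21 became 0 on the log2 scale, with a −log10 p of at least 2 and, added later, without the 2 shorter lists. Without 1 library the calls ranged from 0 to 367 for UV in ASH1L–/– (highest without ALKO_noUV replicate 3), 0 to 755 for UV in WT (highest without WT_noUV replicate 4; kept regions 0 to 4, highest without WT_noUV replicate 1), and 0 to 63 for genotypes without UV. The cause was not tested in any of these.

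With the replicate block, 588 windows and 1 kept region were called for UV in WT, and the other contrasts kept 0. Deviations of same-numbered libraries correlated by −0.145 to 0.331, over 0.1 in 5 of 45 pairs, so the numbers were not taken to pair the samples. Weak summits limit what a missing H3K4me3 peak shows, and the capped XPC lists limit comparisons of XPC.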
